A study of Mus musculus with 3 samples.

Results

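The Leydig cells of the knockout testis are described here as the 4171 barcodes of that library that met a rule on marker genes, out of 13662 testis barcodes kept as cells and 17371 kept across the 3 libraries of the series. A kept barcode held at least 500 UMIs (unique molecular identifiers, each standing for 1 captured transcript) and 200 genes, with at most 20% of UMIs from mitochondrially encoded genes. A Leydig barcode also gave 0.5% or more of its UMIs to Star, Cyp11a1, Cyp17a1, Hsd3b1, Hsd3b6 and Insl3 together, had UMIs of at least 4 of these 6 genes, and gave less than 0.1% to the macrophage genes C1qa, C1qb and C1qc. The barcodes were thus chosen by the measured levels of these 9 genes, whose values are a description and support nothing.

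The testis came from 1 adult mouse of the goGermline line lacking Tsc22d3, a gene for a glucocorticoid-induced leucine zipper protein. It was dissociated by a published protocol (Valli et al) and measured with Chromium 3′ v3.1 chemistry, which counts transcripts at their 3′ end. The other libraries held cells aspirated from the cauda epididymis of a Tsc22d3 knockout (line goGermline) and of a knockout chimera that received induced pluripotent stem cells of mouse (line Pax7-nGFP iPS x goGermline). The host of each library therefore carried the knockout, no testis with intact Tsc22d3 was analysed here, and 1 library per group allows no test between conditions.

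Leydig cells lie between the seminiferous tubules and are the main source of testosterone in the male. Luteinizing hormone from the pituitary acts on their receptor Lhcgr and raises cyclic AMP, upon which the protein Star moves cholesterol into mitochondria. Cyp11a1 cuts cholesterol to pregnenolone there, and Hsd3b enzymes, Cyp17a1 and Hsd17b3 turn pregnenolone into testosterone at the endoplasmic reticulum. Adult Leydig cells arise after birth from stromal progenitors and form a lineage apart from the fetal Leydig cells.

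Leydig barcodes made up 30.5% of kept testis barcodes (95% interval 29.8 to 31.3) and held 63293871 UMIs, 54.6% of those in kept barcodes. Their median was 15065 UMIs (quartiles 11468 and 18838.5, range 500 to 48830) and 3827 genes, against 4402 UMIs and 1899 genes in the 9491 other kept barcodes, called the rest below. The median mitochondrial share was 10.6% in Leydig barcodes and 6.03% in the rest. Leydig barcodes were thus deeper and richer in mitochondrial RNA than the rest. Intervals throughout are exact (Poisson for sums, Clopper-Pearson for shares, conditional binomial for folds) and cover counting error only, since cells of 1 mouse are not replicates.

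The 6 markers took a median of 1.84% of UMIs in Leydig barcodes (0.502% to 3.94%) and 0.0836% in the rest. Among barcodes that met the other limits, those just inside this one stood at 0.502%, 0.5042%, 0.5046%, 0.5063% and 0.5071%, and those just outside at 0.4979%, 0.4946%, 0.4935%, 0.4922% and 0.4906%. Few barcodes lay near it: 491 kept barcodes stood from 0.25% to 0.5%, of which 200 met the limits on detected markers and C1q genes, and 159 Leydig barcodes stood from 0.5% to 0.75%. All 6 markers were detected in 1788 Leydig barcodes, 5 in 1966 and 4 in 417. A further 256 barcodes failed only the limit on C1q genes, 193 reached the marker share with 3 or fewer markers, and 915 met every limit but the mitochondrial one, with a median mitochondrial share of 53.1% and 4709 UMIs. Of the Leydig barcode sequences, 2 also occurred among kept barcodes of the knockout cauda and 0 among those of the chimera cauda.

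**Figure D1:**
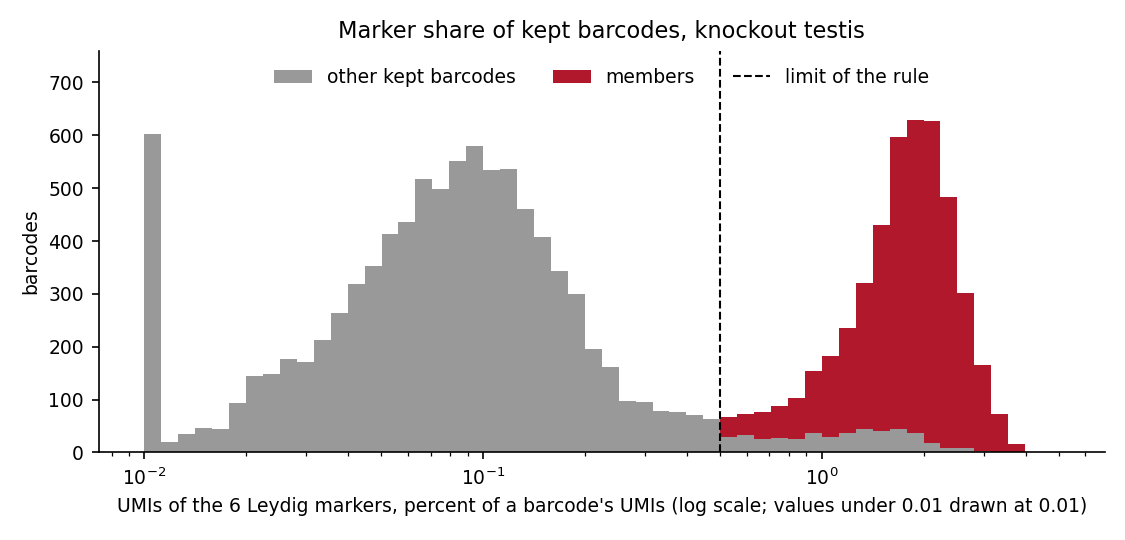
Number of kept barcodes of the knockout testis (vertical axis) by the share of their UMIs from the 6 Leydig markers (horizontal axis, percent, log scale), with the 4171 Leydig barcodes in red on top of the other kept barcodes in grey. The dashed line is the limit of 0.5%, and 491 barcodes lie between 0.25% and it. Grey above the limit are barcodes that failed another limit of the rule, and the median Leydig barcode lies at 1.84%.

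Levels below are in CPM, the UMIs of a gene in the summed barcodes of a class scaled to a total of 1000000. For comparison, kept barcodes outside the rule were placed in marker classes, giving 2922 fibroblast-like, 2080 macrophage-like, 785 myoid or smooth muscle-like, 765 Sertoli-like and 125 endothelial-like barcodes. A gene is called at least 4-fold higher or lower only by the size of its fold in these sums, with no test. At 20 CPM or more in the higher sum, 7421 genes could be compared between Leydig barcodes and the rest, of which 3.02% were at least 4-fold higher in Leydig barcodes and 11.9% at least 4-fold lower, with a median log2 fold of −0.33. Against fibroblast-like barcodes 4.9% of compared genes were at least 4-fold higher and 8.24% lower. These shares were 12.1% and 14.2% against macrophage-like and 9.0% and 14.6% against Sertoli-like barcodes. The counts for each gene list are to be read against these shares for the same comparison, which are not repeated beside every count. Because the rule chose the barcodes by their RNA, every gene that goes with the markers was bound to differ, and these counts describe the cells rather than test them.

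The enzymes of testosterone synthesis came first in the rule. In Leydig barcodes against the rest, Star stood at 690.9 and 103.4 CPM, Cyp11a1 at 3702.0 and 353.2, Cyp17a1 at 7366.2 and 658.1, Hsd3b1 at 2233.7 and 214.3, and Hsd3b6 at 562.0 and 74.8 CPM. The one enzyme of the list outside the rule, Hsd17b3, which makes testosterone from androstenedione, stood at 1396.5 against 123.8 CPM, 11.3-fold higher. Over single Leydig barcodes, the 10th percentile, median and 90th percentile of Hsd17b3 were 379.1, 1238.3 and 2224.5 CPM. Hsd17b3 was detected in 86.8% of Leydig barcodes thinned to 2000 UMIs and in 11.5% of macrophage-like barcodes thinned alike, which should lack it. Before thinning, at median depths of 15065 and 5548 UMIs, Leydig barcodes with an Hsd17b3 UMI made up 95.3%.

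Leydig transcripts were found at a low level in the other classes, with some genes above the others. The 6 markers stood in macrophage-like barcodes at 3.31% to 5.63% of their level in Leydig barcodes, and the 20 genes with the largest folds at 3.03% to 5.97%. In fibroblast-like barcodes the markers stood at 4.14% to 12.6% and the 20 genes at 3.68% to 9.72%. Myoid or smooth muscle-like barcodes gave 4.38% to 10.6% and 3.79% to 11.6%. Hsd3b6 was the highest of the 6 markers in both of these classes. In Sertoli-like barcodes the same 20 genes stood at 1.46% to 4.74%, while Star reached 20.9% (144.1 CPM). In endothelial-like barcodes they stood at 0.926% to 16.7%, the highest being Kit, which endothelium also makes. In the rest as a whole the 6 markers summed to 1809.6 CPM against 19007.3 CPM in Leydig barcodes, with single barcodes of the rest at up to 2.97% of UMIs. These transcripts in the rest enter every fold over it, and with the rest limited to barcodes under 0.1% the count of genes at least 4-fold higher, given below, was 159 in place of 123. The part of RNA shed into the droplets was not tested.

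The electron carriers that feed these enzymes differed in how far they were higher. Fdx1, the ferredoxin that passes electrons to Cyp11a1, stood at 2426.6 CPM in Leydig barcodes and 354.6 in the rest, 6.84-fold higher (6.74 to 6.95). Its reductase Fdxr stood at 348.8 against 77.2 CPM, 4.52-fold higher (4.37 to 4.67). Por, which serves Cyp17a1 and other microsomal enzymes, was 1.92-fold higher at 110.1 CPM, and Cyb5a, a cofactor of the lyase step of Cyp17a1, 1.38-fold higher at 505.1 CPM. Cyb5b, the cytochrome b5 of the mitochondrial outer membrane, was 3.85-fold higher, and H6pd, which supplies NADPH inside the endoplasmic reticulum, stood at 0.672-fold. In all 2 of 6 carriers were at least 4-fold higher than in the rest, Fdx1 and Fdxr, with a median log2 fold of 1.44. The carriers past 4-fold depended on the class compared: Fdx1 and Cyb5b against fibroblast-like barcodes, Fdx1, Fdxr and Cyb5b against macrophage-like barcodes, and Fdx1 against Sertoli-like barcodes.

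**Figure D2:**
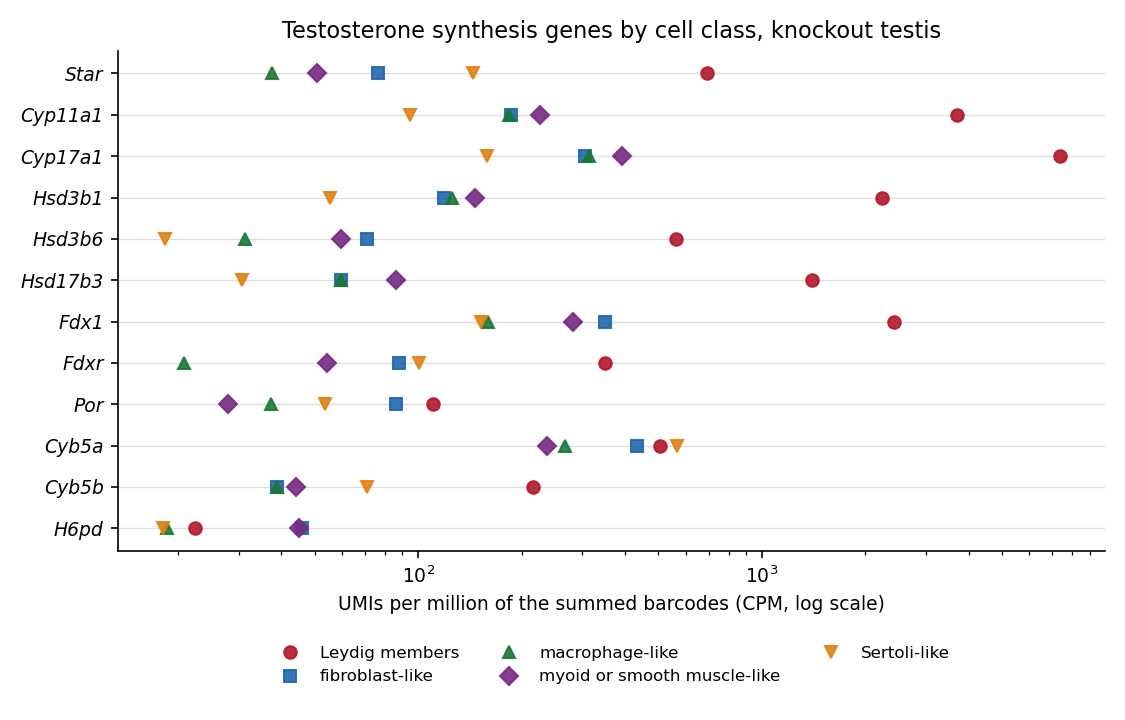
Levels of the testosterone synthesis enzymes and their electron carriers (rows) in CPM of the summed barcodes (log scale), with 1 symbol per cell class. Leydig barcodes (red circles) lie apart from the other classes for the enzymes, Fdx1, Fdxr and Cyb5b, while Por, Cyb5a and H6pd lie close to or within the range of the others.

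Of the other steroid enzymes, 3 of the 8 that could be compared were at least 4-fold higher, with a median log2 fold of 0.52 over the measured list. Sult1e1, which inactivates estrogens by adding sulfate, stood at 2455.6 against 220.8 CPM (11.1-fold, 10.9 to 11.3). Cyp21a1, the 21-hydroxylase that the adrenal cortex uses to make corticosteroids, stood at 145.3 against 12.9 CPM (11.3-fold, 10.4 to 12.2), and Hsd17b7, which acts in both cholesterol and estrogen synthesis, at 189.6 CPM (5.93-fold). Hsd17b12 (343.1 CPM), Hsd17b10 (366.9), Hsd17b11 (134.8) and Hsd17b4 (80.7) were 1.37-fold to 3.3-fold higher. Of the enzymes that would carry androgens further, the 4 named here were low or undetected. The 5α-reductases Srd5a1 and Srd5a2 stood at 8.91 and 0.379 CPM and Akr1c14 at 7.41 CPM. Aromatase, Cyp19a1, gave 0 UMIs, which allows up to 0.0474 CPM. Srd5a3, also on the list, is not described here, so nothing is said of it. The 11β-hydroxysteroid dehydrogenases Hsd11b1 and Hsd11b2, which interconvert active and inactive glucocorticoid, stood at 0.379 and 0.284 CPM.

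Genes linked to fetal Leydig cells or to the adrenal cortex gave 1 member of 8 above 20 CPM, Cyp21a1. Ren1, the renin gene, stood at 11.4 CPM from 722 UMIs, 11.1-fold above the rest (8.41 to 14.9). Thbs2 and Nppc stood at 0.269 and 2.69 CPM. The adrenal 11β-hydroxylase and aldosterone synthase, Cyp11b1 and Cyp11b2, gave 3 UMIs and 1 UMI, the corticotropin receptor Mc2r 2 and the corticotropin-releasing hormone receptor Crhr1 7. Cyp21a1 was therefore present without its downstream adrenal partners at this depth.

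Cholesterol synthesis was higher along most of the pathway, with 13 of 21 genes at least 4-fold higher, 0 lower and a median log2 fold of 2.59. Hmgcs1, which makes the HMG-CoA that enters the pathway, stood at 963.2 CPM (6.09-fold, 5.95 to 6.23). Later steps included Fdps at 473.7 CPM (7.26-fold), Sqle at 215.4 (6.01-fold), Cyp51 at 444.6 (7.0-fold) and Msmo1 at 684.6 (6.02-fold). Against the fibroblast-like barcodes alone, 16 of 21 were at least 4-fold higher, where 4.9% of all compared genes were. Against macrophage-like barcodes 16 of 21 were at least 4-fold higher and 0 lower, where 12.1% of all compared genes were higher and 14.2% lower, and against Sertoli-like barcodes 14 and 0, where 9.0% and 14.6% were. Genes of cholesterol uptake, storage and transport had 0 of 19 higher than the rest, 2 lower and a median of 0.25. By class, 3 of 18 were higher and 1 lower against fibroblast-like barcodes, 3 and 4 of 19 against macrophage-like barcodes, and 4 and 0 of 18 against Sertoli-like barcodes, with Stard4, a carrier of cholesterol, higher in each. Abca1, which exports cholesterol, stood at 781.5 CPM (2.48-fold), Soat1, which esterifies it, at 363.1 (2.33-fold), and Tspo, a mitochondrial outer membrane protein, at 302.3 (0.916-fold). Apoe stood at 2170.2 CPM against 12852.5 in the rest (5.92-fold lower), where macrophage-like barcodes held 40837.2 CPM, and the exporter Abcg1 was 27.2-fold lower at 0.853 CPM.

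The receptor for luteinizing hormone, Lhcgr, stood at 472.1 against 53.9 CPM, 8.77-fold higher (8.43 to 9.11), and was detected in 54.9% of Leydig barcodes thinned to 2000 UMIs, against 4.81% of macrophage-like barcodes thinned alike (90.4% and 12.8% unthinned, at median depths of 15065 and 5548 UMIs). Of the signalling list built around it, 3 of 15 genes were at least 4-fold higher and 2 lower, with a median log2 fold of −0.08. Gramd1b, which carries cholesterol from the plasma membrane, stood at 357.3 CPM (6.37-fold), and Pde8b, a phosphodiesterase that degrades cyclic AMP, at 33.1 CPM (9.57-fold). Pde4b, another such phosphodiesterase, was 16.8-fold lower at 1.67 CPM, and Arrb2, an arrestin, 7.32-fold lower at 7.96 CPM. The shared machinery differed less, with the G protein subunit Gnas at 1279.4 CPM (1.3-fold) and the kinase A subunits Prkar1a and Prkaca at 351.2 and 74.8 CPM (1.47-fold and 1.44-fold). The 5 genes past 4-fold thus went in both directions, and the other 10 compared did not reach it.

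Among transcription factors, Nr5a1, the nuclear receptor that drives steroid enzyme genes, was the 1 of 13 at least 4-fold higher (191.6 against 46.9 CPM, 4.09-fold, 3.91 to 4.27). Klf4 stood at 63.8 CPM (12.2-fold lower), the stromal factor Tcf21 at 35.3 (7.37-fold lower) and the gonadal factor Wt1, which Sertoli cells make, at 5.45 (12.8-fold lower), and the list's median log2 fold was −1.65. Cebpb and Nr2f2 stood at 410.7 and 177.3 CPM (1.61-fold and 0.605-fold). Against fibroblast-like barcodes 1 of 13 factors was higher and 6 lower, against macrophage-like barcodes 7 and 2 of 11, and against Sertoli-like barcodes 6 and 3 of 14. The shares of all compared genes, higher and lower, were 4.9% and 8.24%, 12.1% and 14.2%, and 9.0% and 14.6% in that order. Of the receptors for hormones and growth factors, 4 of 16 were at least 4-fold higher and 3 lower, with a median of −0.77. Besides Lhcgr these were Prlr, the prolactin receptor (1430.3 CPM, 6.14-fold), Kit, the stem cell factor receptor (326.4 against 33.7 CPM, 9.69-fold, 9.23 to 10.2), and Esr1, an estrogen receptor (143.4 CPM, 4.2-fold). Amhr2, the receptor for anti-Müllerian hormone, stood at 268.1 CPM, 1.43-fold over the rest. The receptors Tgfbr2 and Pdgfrb were 63.2-fold and 19.9-fold lower, both at 1.85 CPM, and Fgfr1 was 4.14-fold lower at 24.9 CPM. By class, 3 of 17 receptors were higher and 6 lower against fibroblast-like barcodes, 9 and 2 of 15 against macrophage-like barcodes, and 7 and 1 of 15 against Sertoli-like barcodes.

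Of the hormones, growth factors and cytokines, 2 of 16 were at least 4-fold higher than in the rest and 8 lower, with a median log2 fold of −1.92. The counts higher and lower were 3 and 8 of 14 against fibroblast-like, 6 and 4 of 10 against macrophage-like and 4 and 6 of 13 against Sertoli-like barcodes, with Insl3 and Agt higher in each. Over all compared genes these shares were 4.9% and 8.24%, 12.1% and 14.2%, and 9.0% and 14.6% in the same order. Insl3, the insulin-like hormone of testis descent, was a marker of the rule and stood at 4452.6 CPM, while its receptor Rxfp2 gave 1 UMI. Agt, which encodes angiotensinogen, was the other, at 2146.1 against 318.0 CPM (6.75-fold). Igf1 stood at 34.7 against 675.9 CPM (19.5-fold lower), and Ccl2 at 5.75 against 355.9 (61.9-fold lower). Inha, the inhibin α subunit, stood at 170.9 against 171.6 CPM (0.996-fold), while the β subunits Inhba and Inhbb were 5.8-fold and 13.8-fold lower. Kitl, the ligand of Kit, stood at 150.9 CPM, 1.08-fold over the rest, so both partners were measured in these cells.

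Of 13 genes of adult Leydig cells that could be compared, 12 were at least 4-fold higher, with a median log2 fold of 3.18 over the measured list. The list held 16 genes, of which Hsd11b1, Cyp2a4 and Cyp2a5 stayed under 20 CPM in both sums and were not compared. All 16 lists, this one and the following one among them, were put together with earlier results of these data known. None of them is independent evidence. The adult list included Fabp3, a fatty acid carrier (9402.7 CPM, 7.47-fold), Vcam1, an adhesion protein (2327.6 CPM, 4.12-fold), and the glutathione transferase Gsta3 (995.8 CPM, 7.01-fold), which also isomerises steroid intermediates. The exception among those compared, Clec4n, is a lectin of macrophages and stood at 1.56 CPM. Of the progenitor genes, 1 of 9 was higher, Wnt5a (102.4 CPM, 5.06-fold), and 5 were lower, with a median of −2.88. The progenitor genes Dlk1, Igfbp3, Cd34 and Ly6a stood at 3.1, 2.13, 31.8 and 16.1 CPM (5.79-fold to 14.1-fold lower), and Pdgfra at 81.5 CPM (0.347-fold). The adult genes that could be compared were thus mostly higher than in the rest, while 5 of 9 compared progenitor genes were lower. The progenitor count depended on the class compared, with 7 of 9 lower and 1 higher against fibroblast-like barcodes, but 6 of 6 higher against macrophage-like barcodes and 5 of 7 higher and 1 lower against Sertoli-like barcodes. All compared genes gave shares higher and lower of 4.9% and 8.24%, 12.1% and 14.2%, and 9.0% and 14.6% in that order.

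Of the antioxidant and glutathione enzymes, 1 of 23 was at least 4-fold higher (Gsta3) and 1 lower, Gstm6 at 38.0 CPM (4.02-fold lower), which stood at 804.4 CPM in Sertoli-like barcodes. Gstm1 and Gstm2, close paralogs between which reads may be split, stood at 5640.5 and 4643.7 CPM (2.66-fold and 3.41-fold), and the list's median log2 fold was 0.69. By class, 2 of 23 were higher and 1 lower against fibroblast-like, 8 and 1 against macrophage-like, and 6 and 1 against Sertoli-like barcodes. The shares of all compared genes, higher and lower, were 4.9% and 8.24%, 12.1% and 14.2%, and 9.0% and 14.6% in that order. Tsc22d3 itself, the gene named as knocked out, stood at 4.93 CPM against 8.57 in the rest, and 3′ counts do not show whether these transcripts carry the deletion. Of the glucocorticoid response genes 0 of 9 were at least 4-fold higher and 1 lower, with a median of −1.27: Fkbp5 stood at 96.5 CPM (1.31-fold), Dusp1 at 398.8 (0.349-fold) and the glucocorticoid receptor Nr3c1 at 47.6 CPM. Against fibroblast-like barcodes 0 of 8 were higher and 4 lower: Nr3c1, Klf9, Dusp1 and Errfi1. The counts were 2 and 2 of 9 against macrophage-like and 2 and 0 of 9 against Sertoli-like barcodes, with the shares of all compared genes as just given. Immediate early and heat shock genes, which dissociation can induce, had 0 of 17 higher and 1 lower (Atf3, 38.7 CPM, 10.8-fold) with a median of −1.57, and 12 of 17 were at least 4-fold lower than in fibroblast-like barcodes, where 8.24% of all compared genes were. Against macrophage-like barcodes 4 of 16 were lower (14.2% of all compared genes) and 0 higher, and against Sertoli-like barcodes 0 were lower and 1 of 16 higher, Nr4a1. Fos stood at 1425.6 CPM in Leydig and 7396.1 CPM in fibroblast-like barcodes. Cell cycle genes gave 0 higher and 0 lower of 3, with a median of −0.87.

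At the stricter level of 100 CPM, 123 of 1988 genes (6.19%) were at least 4-fold higher in Leydig barcodes and 198 (9.96%) lower, or 117 and 195 without the genes of the rule. Without the 4 sub-clusters described below whose barcodes were mostly marked as doublets, the counts were 124 and 214. The genes with the largest folds included secreted and transport proteins as well as enzymes. Lcn2, a lipocalin that binds bacterial iron carriers, stood at 18622.9 against 1520.1 CPM (12.3-fold, 12.2 to 12.3). Ptgds, which makes prostaglandin D2, stood at 23292.7 against 2128.4 CPM (10.9-fold), while the prostaglandin D2 receptor Ptgdr gave 2 UMIs. Enzymes among the 20 were Nat8 (128.4 CPM, 10.8-fold), Hao2 (122.4, 10.5-fold), Ces1d (378.3, 9.89-fold), Bhmt (688.5, 9.74-fold) and Ephx1 (1223.3, 9.29-fold), beside Hsd17b3, Cyp21a1 and Sult1e1. The list also held the water channel Aqp2 (1116.0 against 111.0 CPM, 10.1-fold, 9.79 to 10.3), known from the collecting duct of the kidney, the ammonia transporter Rhbg (121.0 CPM), the secreted protein Lrg1 (385.3 CPM), Spink4 (136.5 CPM), Bpifb5 (257.4 CPM) and Sez6l2 (117.3 CPM), besides Kit.

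**Figure D3:**
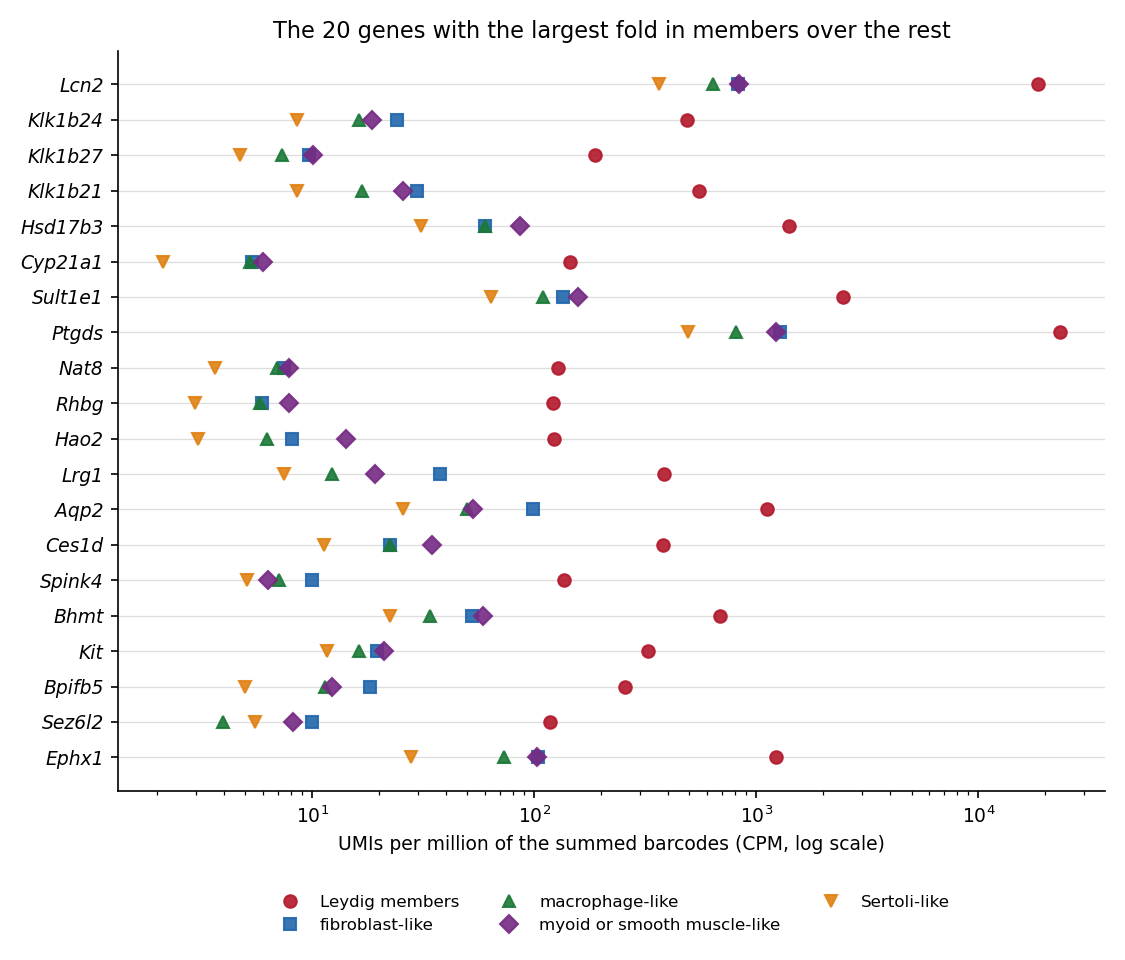
Levels in CPM (log scale) of the 20 genes with the largest fold in Leydig barcodes over the rest (rows, in order of fold), with 1 symbol per cell class. Red circles (Leydig) lie to the right for every gene, and the other classes gather at 1.46% to 11.6% of that level; endothelial-like barcodes are not drawn.

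Of the 20 genes, 3 were kallikrein 1-related peptidases, serine proteases encoded in a cluster on chromosome 7. Klk1b24 stood at 489.7 against 40.4 CPM (12.1-fold, 11.6 to 12.7), Klk1b21 at 551.3 against 47.0 (11.7-fold, 11.3 to 12.2) and Klk1b27 at 187.6 against 15.6 CPM. Across 3792 Leydig barcodes of at least 5000 UMIs, Spearman's rho was 0.78 for Klk1b21 and Klk1b24, 0.71 for Klk1b21 and Klk1b27 and 0.66 for Klk1b24 and Klk1b27, as a description of barcodes from 1 library. The last 400 bases of their longest coding transcripts were 90.8% to 94.5% identical, and 38.1% of the 31-base words at the end of Klk1b21 also occur in Klk1b24, so that reads could be split between them and the share of each is uncertain. Genes of the family chosen after their values were seen were Klk1 (39.1 CPM), Klk1b22 (33.5 CPM) and Klk1b16 (26.9 CPM), while 8 other Klk1b genes stood at 1.11 CPM or less.

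Because these genes moved together, the 250 bases upstream of their RefSeq starts are shown, on GRCm38.p6 and the plus strand, at chr7:44102042-44102291 for Klk1b21, chr7:44187986-44188235 for Klk1b24 and chr7:44052040-44052289 for Klk1b27. Capitals mark the word AGGTCA, a part of the sites that nuclear receptors such as Nr5a1 recognise, searched on both strands and therefore also as TGACCT.
Klk1b21: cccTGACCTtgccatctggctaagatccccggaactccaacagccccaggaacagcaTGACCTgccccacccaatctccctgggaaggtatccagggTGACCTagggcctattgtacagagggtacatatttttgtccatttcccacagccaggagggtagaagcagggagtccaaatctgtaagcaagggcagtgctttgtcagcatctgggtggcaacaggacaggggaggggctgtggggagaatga
Klk1b24: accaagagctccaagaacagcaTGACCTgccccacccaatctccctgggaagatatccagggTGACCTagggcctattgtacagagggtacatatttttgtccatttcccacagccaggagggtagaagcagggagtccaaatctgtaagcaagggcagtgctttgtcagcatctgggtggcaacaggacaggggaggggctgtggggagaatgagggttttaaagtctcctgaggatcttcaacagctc
Klk1b27: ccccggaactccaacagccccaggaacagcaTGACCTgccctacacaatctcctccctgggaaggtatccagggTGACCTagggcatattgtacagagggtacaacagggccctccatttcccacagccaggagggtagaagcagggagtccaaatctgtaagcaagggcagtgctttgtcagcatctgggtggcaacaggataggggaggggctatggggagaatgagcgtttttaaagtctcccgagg
The stretches were 75.1% to 82.6% identical to each other, and held the word 3, 2 and 2 times. Of 32851 promoter stretches of the same length in the RefSeq table, 14.0% held it at least once, as did 15.8% of 27025 gene symbols in any of their stretches. Of the 20 genes with the largest folds, 15 were in the table and 5 of these held the word (33.3%), among them the 3 kallikreins, which share most of their sequence. A match is only a word in this window, and binding was not measured.

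All 8 genes named on the low side were genes of myeloid cells. Ms4a6c stood at 0.537 CPM (223.4-fold lower, 159.7 to 322.8), C3ar1 at 0.553, Gpr34 at 0.632, Ccl12 at 0.727, Ly86 at 0.743, Ctss at 1.86, Cx3cr1 at 2.56 and Pf4 at 4.12 CPM. In macrophage-like barcodes Pf4, Cx3cr1 and Ctss stood at 2602.0, 1595.2 and 1288.4 CPM. The limit on C1q genes removed macrophage barcodes by construction, so these folds follow from the rule.

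Markers of other cell types were low but not absent. In Leydig barcodes against the rest, the 6 fibroblast markers summed to 503.7 and 3792 CPM (4 of 6 at least 4-fold lower), the 6 smooth muscle markers to 271 and 3486.1 (6 of 6), the 6 Sertoli markers to 361.7 and 2269.9 (5 of 6), the 6 endothelial markers to 20.2 and 158.8 (5 of 6), and the 8 of a wider macrophage list to 57.7 and 6059.7 (8 of 8). Germ cell markers summed to 7.54 against 116 CPM (8 of 10), with Prm1 and Smcp at 0 UMIs. Of the Leydig barcodes, 259 (6.21%) also met the marker limit of fibroblasts, 138 (3.31%) that of myoid or smooth muscle cells and 95 (2.28%) that of Sertoli cells. A doublet caller marked 694 Leydig barcodes (16.6%), against 1601 of all kept barcodes (11.7%), and its marks were not used to remove any. The total marked follows from a rate set in advance, 0.8% per 1000 kept barcodes with ties included, and is no measured doublet share.

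The 2 forms of 3β-hydroxysteroid dehydrogenase differed most in how they were spread over the cells. Hsd3b1 (ENSMUSG00000027871, chr3:98852194-98859794, minus strand of GRCm38) and Hsd3b6 (ENSMUSG00000027869, chr3:98805504-98814443, minus strand) turn pregnenolone into progesterone and lie close together. Over Leydig barcodes the 10th percentile, median and 90th percentile were 201.0, 2084.0 and 4313.1 CPM for Hsd3b1, but 0, 43.1 and 1924.8 CPM for Hsd3b6. Hsd3b1 was thus found in nearly every barcode and Hsd3b6 was absent from many and high in others. With at least 5000 UMIs, 1816 of 3792 Leydig barcodes (47.9%) had no Hsd3b6 UMI and 107 (2.82%) no Hsd3b1 UMI.

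Ranges of Hsd3b6 were drawn after its values were seen, and they are ranges of a level rather than cell types. Of the 3792 barcodes, 2171 (57.3%, 55.7 to 58.8) lay under 100 CPM, 309 (8.15%) from 100 to 500 CPM and 1312 (34.6%, 33.1 to 36.1) at 500 CPM or more. The middle range thus held the fewest, which does not show how many lay close to either limit. The share at 500 CPM or more was 34.3% to 35.4% with at least 2000 or 10000 UMIs or without the mixed sub-clusters. Median depth was alike in the 3 ranges, at 15749, 15724 and 15647 UMIs, as were the medians of the marker share (1.88%, 1.7% and 1.84%) and the mitochondrial share (11.2%, 10.7% and 10.2%). The median barcode of the top range held 22 Hsd3b6 UMIs, and that of the lowest range 0.

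The other gene went the opposite way. From the lowest to the top range, Hsd3b1 stood at 2899.1, 2171.2 and 1175.8 CPM, 2.47-fold lower at the top. Hsd3b6 stood at 10.5, 285.1 and 1523.3 CPM, and both genes together at 2909.6, 2456.4 and 2699.1 CPM, so that their sum differed far less than either. Both reached 500 CPM in 793 barcodes (20.9%), Hsd3b1 alone in 2364 (62.3%), Hsd3b6 alone in 519 (13.7%) and neither in 116 (3.06%). Spearman's rho of the pair was −0.57 over 3792 barcodes of 1 library, and −0.58 over the 3293 without the mixed sub-clusters. Both genes count toward the marker share of the rule, which bears on this value.

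**Figure D4:**
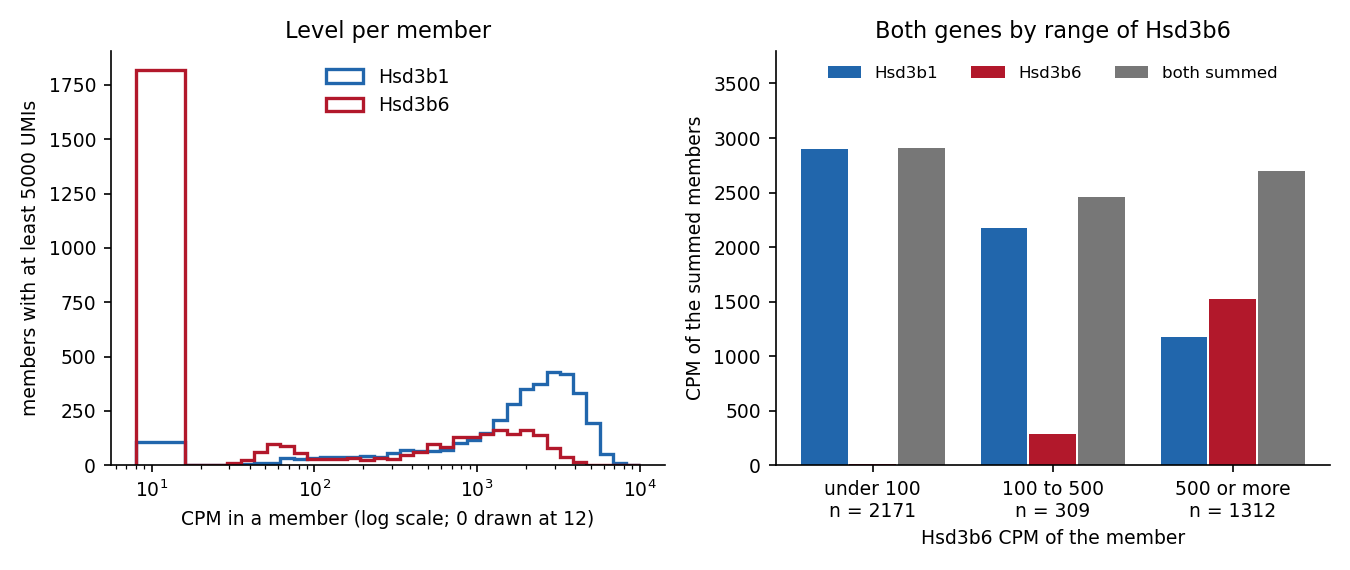
Left, number of Leydig barcodes with at least 5000 UMIs by their level of Hsd3b1 (blue) and Hsd3b6 (red) in CPM (log scale, 0 drawn at 12): Hsd3b6 has a peak at 0 and another near 1000 to 2000 CPM, Hsd3b1 only one main peak. Right, bars of the CPM of the summed barcodes in the 3 ranges of Hsd3b6 (n = 2171, 309 and 1312), where Hsd3b1 falls from 2899.1 to 1175.8 CPM and the sum of both (grey) stays between 2456.4 and 2909.6 CPM; no error bars are drawn since barcodes of 1 library are not replicates.

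Cyp17a1 and Hsd17b3 differed little between the ranges, while Cyp11a1 was 1.43-fold lower (1.42 to 1.45) and Star 1.28-fold higher (1.25 to 1.31) at the top. From the lowest to the top range, Cyp17a1 stood at 7365.9, 6874.4 and 7544.6 CPM and Hsd17b3 at 1396.7, 1320.7 and 1436.3 CPM. In the lowest and the top range Insl3 stood at 4193.4 and 4868.5 CPM, Star at 621.9 and 795.8 CPM and Lhcgr at 450.3 and 506.5 CPM, while Cyp11a1 stood at 4247.2, 3147.2 and 2962.4 CPM. Of 1431 other genes with at least 100 CPM, 2 were at least 2-fold higher in the top than in the lowest range, Igfbp4 (4.77-fold, 4.39 to 5.18), which binds insulin-like growth factors, and the collagen Col1a2 (2.02-fold). Without the mixed sub-clusters the 2 genes were others, Dcn (3.49-fold, against 1.3-fold with them), a fibroblast marker, and Cd63 (2.4-fold), while Igfbp4 (6.57-fold) and Col1a2 (3.28-fold) fell under 100 CPM. The 5 at least 2-fold lower, with and without the mixed sub-clusters, were Hsd3b1, Cyp21a1 (2.35-fold, 2.23 to 2.48), Svs5 (2.33-fold), Serpina3a (2.12-fold) and Serpina5 (2.08-fold). The fibroblast markers summed to 412.9, 588.9 and 607.5 CPM in the 3 ranges, and to 204.2, 321.0 and 451.6 CPM without the mixed sub-clusters, and their part in the difference was not tested.

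The 2 transcripts can be told apart by 3′ reads. Their longest coding transcripts were 78.7% identical, the last 400 bases 69.9%, and 0 of 370 words of 31 bases at the end of Hsd3b1 occurred in Hsd3b6. The 250 bases upstream of their RefSeq starts are shown because the genes differ in use between these cells, on the minus strand of GRCm38.p6 at chr3:98859795-98860044 for Hsd3b1 and chr3:98814444-98814693 for Hsd3b6. Capitals mark GATA words, which are GATA with A or T before it and A or G after it, searched on both strands, such as factors of the GATA family recognise.
Hsd3b1: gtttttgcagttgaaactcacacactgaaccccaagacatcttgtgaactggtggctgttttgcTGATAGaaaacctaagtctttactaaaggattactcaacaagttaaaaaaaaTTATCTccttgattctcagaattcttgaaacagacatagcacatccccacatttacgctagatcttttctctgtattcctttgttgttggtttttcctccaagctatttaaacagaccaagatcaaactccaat
Hsd3b6: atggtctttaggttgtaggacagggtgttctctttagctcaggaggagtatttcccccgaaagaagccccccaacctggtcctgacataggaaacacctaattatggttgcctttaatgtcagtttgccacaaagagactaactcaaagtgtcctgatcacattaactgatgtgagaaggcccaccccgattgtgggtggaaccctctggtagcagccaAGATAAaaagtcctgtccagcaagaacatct
These stretches were 49.1% identical over 271 aligned columns. They held 2 GATA words for Hsd3b1 and 1 for Hsd3b6, words that 26.5% of the 32851 stretches in the table hold. Neither stretch held AGGTCA. No reading of these matches was tested.

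Cyp21a1 (ENSMUSG00000024365, chr17:34801348-34804561, minus strand) was also uneven. Of the 3792 barcodes, 2187 (57.7%) had no Cyp21a1 UMI, 1136 stood above 0 and under 300 CPM, and 469 (12.4%, 11.3 to 13.5) at 300 CPM or more, with a median of 10 and a maximum of 120 UMIs in that top range. These ranges too were drawn after the values were seen. Thinned to 2000 UMIs, 15.1% of Leydig barcodes had a Cyp21a1 UMI, against 0.861% of macrophage-like barcodes. The gene was therefore carried by a minority of the Leydig barcodes at this depth.

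Barcodes of the top Cyp21a1 range were at least 2-fold higher than those without a UMI for 3 of 1443 genes and lower for 4, with no test. The complement gene C4b stood at 41.4, 91.5 and 273.7 CPM over the 3 ranges (6.61-fold, 6.18 to 7.07), and lies at chr17:34728380-34743882, close to Cyp21a1 in the major histocompatibility region. The near copy C4a was not analysed here, and Cyp21a1 has a pseudogene copy nearby, so reads of either gene may be shared with a copy. Svs5, a seminal vesicle secretory protein gene, stood at 184.1, 374.8 and 632.1 CPM, while Ass1, of the urea cycle, stood at 626.4, 454.8 and 231.2 CPM (2.71-fold lower, 2.58 to 2.84). Hsd3b6 stood at 698.8, 443.2 and 281.1 CPM, and 85 of the 469 (18.1%) reached 500 CPM of Hsd3b6, against 903 of the 2187 without Cyp21a1 (41.3%). High Cyp21a1 thus went with high Hsd3b1 (2769.1 against 2000.1 CPM) rather than with Hsd3b6, in barcodes of 1 library.

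Beyond these genes, 50 of 1499 genes with at least 100 CPM had a variance more than 2 times their mean over 3911 Leydig barcodes thinned to 2000 UMIs, where the median ratio of variance to mean was 1.05. The ratio was 22.3 for Ptgds, 17.1 for Lcn2, 9.34 for Svs5, 8.21 for Ly6k, 6.51 for Apoc1 and 6.23 for the fibroblast gene Dcn. It was 5.36 for Cyp17a1, 3.55 for Sult1e1, 3.49 for both Cyp21a1 and Hsd3b6, 3.18 for Cyp11a1, 2.94 for Hsd3b1 and 2.57 for Insl3. These genes were picked from the top of the list or for their role in the rule, and genes with more UMIs can reach larger ratios.

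Levels also went with the marker share. From the bin of 0.5% to 1% (n = 381) to that of 2.5% or more (n = 566), Cyp17a1 went from 1668.7 to 13328.4 CPM and Insl3 from 2970.1 to 5482.7 CPM, which the rule fixes, and Lhcgr, outside the rule, from 387.4 to 559.7 CPM. The summed fibroblast markers went the other way, at 1344.3, 823.1, 433.4, 318.9 and 235.4 CPM over the 5 bins. Hsd3b6 had no such order, at 768.4, 573.8, 503.6, 523.0 and 649.5 CPM. The 200 barcodes at 0.25% to 0.5% that met the other limits held Hsd3b6 at 606.3 CPM and Insl3 at 1561.6 CPM but Dcn at 2116.0 and Sult1e1 at 253.2 CPM, so Leydig and fibroblast transcripts were found together there, and whether these were doublets was not tested.

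Clustering of the Leydig barcodes by themselves gave 11 sub-clusters, whose defining genes are given as a description. Sub-clusters 1, 2 and 3 (n = 1228, 1178 and 611) held most barcodes, at medians of 15831, 16220.5 and 14400 UMIs, and 2.12% to 7.64% of their barcodes were marked as doublets. Sub-cluster 1 was led by Ly6d (132.4 against 54.1 CPM in the other Leydig barcodes), Svs5 (481.8 against 218.2), Klk1b27, Klk1b24 and Klk1b21. Sub-cluster 2 was led by the immediate early genes Fosb (989.3 against 399.5 CPM), Btg2 and Jun, with Cxcl1 and Sat1, and sub-cluster 3 by Gadd45g, Cxcl1, Ier2, C4b and Ier3. Among these 3 sub-clusters, Klk1b21, Klk1b24 and Svs5 were thus highest in sub-cluster 1. The immediate early and heat shock genes summed to 3942.8, 11034.5 and 8744.5 CPM in sub-clusters 1, 2 and 3. They stood higher in sub-clusters 4, 5 and 7, described below, at 11791.4, 12318.8 and 11299.3 CPM. Over all sub-clusters, Svs5 (801.7 CPM) and Klk1b24 (670.6 CPM) were highest in sub-cluster 10.

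Sub-clusters 4, 7, 8 and 11 carried markers of another cell type, and 75.7%, 96.4%, 96.2% and 81.8% of their barcodes were marked as doublets. Sub-cluster 4 (n = 334) was led by Clec3b, S100a6, Plac8, Mgp and Dcn, and sub-cluster 7 (n = 167) by the smooth muscle genes Myh11, Tagln and Acta2, with Col4a4 and Ccn2. Sub-cluster 8 (n = 80) was led by Cldn5, Cldn11, Slc52a3, Tmem184a and Tmem114, with Sertoli markers at 4092.1 CPM. Sub-cluster 11 (n = 11) was led by Mov10l1, Hormad1, Sycp1, Usp26 and Smc1b, most of them meiotic genes, with germ cell markers at 1462.6 CPM. These are the mixed sub-clusters left out above. Sub-cluster 6 (n = 217) was shallow, with a median of 879 UMIs, and was led by the globins Hba-a1, Hba-a2 and Hbb-bs and by Wfdc10 and Etd, with erythroid markers at 3159.8 CPM and Sertoli markers at 1949.1 CPM.

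Sub-cluster 5 (n = 239) combined high Hsd3b6 with low levels of several other Leydig genes. At resolution 0.3, 235 of its barcodes fell into a cluster of 570 that also held 332 of the 334 barcodes of sub-cluster 4, and at resolution 1.0, 236 fell into a cluster of 282. In it 200 of 232 barcodes with at least 5000 UMIs (86.2%) reached 500 CPM of Hsd3b6. In sub-clusters 1 to 4 and 6 to 10 the share was 27.2% (sub-cluster 2) to 44.4% (sub-cluster 9). Hsd3b6 stood at 1638.4 CPM, Hsd3b1 at 896.4, Cyp11a1 at 1085.0 and Cyp17a1 at 3667.0 CPM, while Lhcgr (561.4 CPM), Fdx1 (2924.8) and Insl3 (4355.3) stood near the level of all Leydig barcodes. Svs5 was 17.9-fold lower than in the other Leydig barcodes (17.8 against 317.5 CPM), Sult1e1 lower at 171.7 against 2579.7 CPM and Klk1b27 8.11-fold lower. The leading genes were Igfbp4 (400.7 against 35.0 CPM, 11.4-fold), Ly6a (108.8 CPM, 9.87-fold), Ntrk2, the BDNF receptor (103.9 CPM, 8.15-fold), Cyba and Cd63. Doublet marks were at 4.6%, the median depth at 12921 UMIs and the marker share at 1.05%, with fibroblast markers at 1273.5 CPM, whose part was not tested.

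Sub-cluster 9 (n = 55) held proliferation genes and was recovered at each resolution tried. Mki67 stood at 394.6 CPM and Top2a at 836.3 CPM, and the leading genes were Mxd3, Hmmr, Prc1, Ube2c and Nusap1. Steroid genes were present in it, with Cyp17a1 at 4131.9, Hsd17b3 at 1143.0, Lhcgr at 488.7 and Star at 293.4 CPM. Its median depth was 23458 UMIs and 12.7% were marked as doublets. Thinned to 2000 UMIs, 33 of 3911 Leydig barcodes (0.844%, 0.582 to 1.18) had 3 or more of 8 cell cycle genes. The counts were 34 of 1975 macrophage-like (1.72%), 4 of 2556 fibroblast-like (0.156%) and 4 of 611 Sertoli-like barcodes (0.655%, 0.179 to 1.67). Unthinned, 228 of 4171 Leydig barcodes (5.47%) had them, against 3.89% of macrophage-like, 0.684% of fibroblast-like and 5.36% of Sertoli-like barcodes, which differ in depth.

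Sub-cluster 10 (n = 51) was led by the cell cycle inhibitor Cdkn1a, at 694.9 against 15.3 CPM in the other Leydig barcodes (45.3-fold). Its other leading genes were Cox6b2 (271.8 CPM), Phlda3 (131.1), Klk1 (371.8) and Lpin1 (101.4). Known targets of the p53 protein were read in it after its leading genes were seen, with Mdm2 at 179.8, Bax at 407.0, Ccng1 at 269.0 and Trp53inp1 at 339.4 CPM, and Trp53 itself at 58.1 CPM. Cyp21a1 stood at 16.2 against 146.8 CPM, and 0 of 50 barcodes reached 300 CPM. Its depth (13468 UMIs), marker share (1.95%) and doublet marks (3.92%) were close to those of the main sub-clusters. At other resolutions its 51 barcodes fell into clusters of 1259 and 127 barcodes, so it did not stand alone there.

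**Figure D5:**
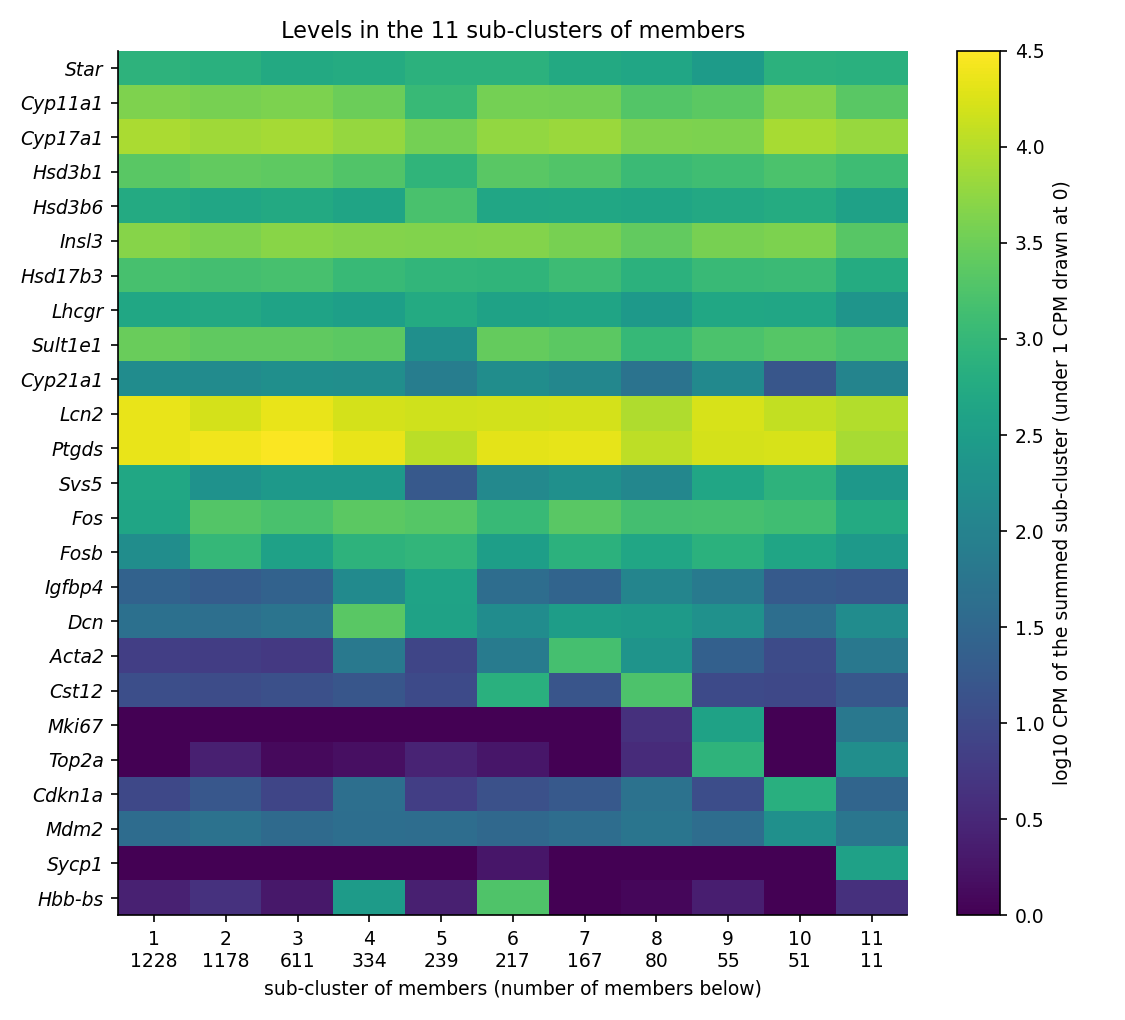
Level (log10 CPM, colour scale) of 25 genes (rows) in the 11 sub-clusters of Leydig barcodes (columns, with the number of barcodes). Steroid genes are present in every column; Dcn stands out in sub-cluster 4, Acta2 in 7, Cst12 in 8 and 6, Mki67 and Top2a in 9, Cdkn1a and Mdm2 in 10 and Sycp1 in 11, and Sult1e1 and Svs5 are low in 5.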

How the data were processed

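The deposited matrices hold raw UMI counts per gene and barcode, as whole numbers made by the authors, for 26124 genes. Cell Ranger 6, Seurat 4.2.1 and the build GRCm38.p6 are given in the submitters' processing notes, and per the file headers the testis matrix was written by Cell Ranger 6.1.2. The testis library held 134795047 UMIs in 18108 barcodes. The knockout cauda held 41862286 UMIs and the chimera cauda 5395856. Samples were grouped by their titles, with 1 library per group, so no test was run. All per-sample value columns deposited were mapped.

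Leydig barcodes and comparison classes were found by marker shares, UMIs were summed per class and scaled to CPM, and 0 UMIs was read as up to 3. The named genes were the 20 highest and 8 lowest by fold with at least 100 CPM, without mitochondrial, ribosomal protein and unnamed gene models, all steroid enzymes and carriers, and the leading 6 or those at least 4-fold apart in the other lists. A sub-cluster was described by its 5 leading genes. The members and the 16 lists were chosen with earlier results of these data known. Other genes (such as Apoc1, Ly6k, Ptgdr and the p53 targets) were chosen after their values were seen. Sub-clusters used scanpy 1.11.5 (2000 variable genes, 30 components, 15 neighbours, Leiden at 0.5, seed 7). Doublets were scored against simulated doublets, 2 per barcode, with 50 neighbours, and the highest scores were marked at a set rate of 0.8% per 1000 kept barcodes. The sums and folds were tested on simulated data. Positions come from GENCODE M21, which held 99.6% of the gene IDs, and sequences from RefSeq. The alternatives changed the limits of the rule, the depth, the doublets, the rest and the size rule. Some list members are not reported here by name.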

Additional observations from a re-analysis of the deposited data

Results flagged for a closer look

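The 6 Leydig markers also gave UMIs in both cauda libraries, which the comparisons above do not use and where no Leydig cells are labelled. The knockout cauda held 343 UMIs of them (8.19 CPM, 7.35 to 9.11), and 1 of its 3525 kept barcodes met the rule, with 3656 UMIs and a marker share of 1.29%. The chimera cauda held 30 UMIs (5.56 CPM, 3.75 to 7.94), and 0 of its 184 kept barcodes met the rule. With 0 read as up to 3 barcodes, this allows a share of up to 1.63%, which is not an exact interval.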

How the results depend on the processing

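The share of Leydig barcodes, 30.5%, was 27.7% with a marker limit of 1% and 32% with one of 0.25%, 27.5% with at least 5 markers and 31.4% with at least 3. It was 17.2% with at most 10% mitochondrial UMIs and 28.2% with no such limit, 28.8% after removing marked doublets and 27.4% without the mixed sub-clusters, an alternative chosen after seeing the data. It was 31% with at least 1000 UMIs and 30.3% with the C1q limit at 0.05%. The counts of 123 higher and 198 lower genes became 224 and 884 at 20 CPM, 556 and 4279 with no level limit and 327 and 370 at 2-fold, and lay at 97 to 159 and 162 to 224 under the other alternatives. Of 191 named genes at least 4-fold apart, 162 were so under every alternative run, and 2571 of 2668 single values were. Direction changed for 2 sparse genes, Ms4a1 (2.2-fold with at least 5000 UMIs in members and rest) and Tnp2 (1.76-fold with at most 10% mitochondrial UMIs), with 4 UMIs and 1 UMI in Leydig barcodes, and the cause was not tested. There were 7 sub-clusters at resolution 0.3 and 19 at 1.0. No paired analysis was possible because each group has 1 library, and for the same reason no library could be left out. One mouse gives no spread between animals, Leydig barcodes were deeper than the rest, and levels near 0.0474 CPM are those of 3 UMIs.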
